A study of Mus musculus with 96 samples.

Results

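Lateral olivocochlear neurons (LOCs) of the mouse differed widely in the size of their spontaneous excitatory postsynaptic currents (sEPSCs), and the transcripts of LOCs at both ends of this range are described here. Of the 30 neurons labelled as LOCs by their delayed firing, 8 had a mean sEPSC amplitude of 55 pA or more (large group) and 12 had 40 pA or less (small group). These 20 neurons were chosen by this amplitude. Another 8 LOCs lay between both limits (middle group), and 2 LOCs with large sEPSCs, cell_78 and cell_85, were set aside, for a reason given below. The series comprises 96 libraries, namely 86 neurons of the lateral superior olive (LSO) and 10 negative controls, for which the slice was touched with a pipette.

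All neurons came from acute brainstem slices of C57BL/6 J mice of both sexes in the second postnatal week, without treatment or genetic change. Each neuron was recorded at near-physiological temperature and a holding potential of -70 mV, its cytoplasm was drawn into the pipette, and libraries of the polyadenylated RNA were made after Smart-seq2 with modifications (Patch-seq). No treatment or genotype sets the groups apart. Since no label ties a neuron to an animal, each group was treated as 1 sample, and no p-value, standard error or count of significant genes was derived from single neurons. Differences between the groups are a description of these neurons.

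LOCs are cholinergic, peptide-containing efferents whose axons end beneath the inner hair cells of the cochlea, whereas the principal neurons of the LSO (pLSOs) compare sound levels between the ears. Fast excitation of both is carried by AMPA receptors, tetramers of the subunits GluA1 to GluA4 whose conductance, calcium permeability and kinetics depend on the subunits. Auxiliary proteins such as the transmembrane AMPA receptor regulatory proteins (TARPs), cornichons and Shisa proteins take part in their trafficking and gating, while NMDA, kainate and metabotropic receptors add slower or modulatory signals.

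The amplitude that defined the groups ranged from 59.2 to 92.5 pA in the large group (75.0 ± 13.4 pA, mean ± SD, n = 8) and from 20.0 to 39.4 pA in the small group (32.1 ± 7.10 pA, n = 12). Just outside the limits lay a LOC with 49.4 pA and a LOC with 40.5 pA. None of the 41 Onset and 11 Sustained pLSOs with an amplitude label reached 55 pA, and their highest values were 47.5 and 36.6 pA. Among LOCs, 10 of 30 reached it, including both neurons set aside.

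sEPSCs of the large group also had short and uniform rise times. The 10–90% rise time ranged from 0.29 to 0.45 ms with a median of 0.36 ms in the large group (0.37 ± 0.055 ms), and from 0.25 to 1.04 ms with a median of 0.495 ms in the small group (0.524 ± 0.223 ms). In 7 of 12 small-group neurons the rise time was longer than in any neuron of the large group, while 2 small-group neurons had shorter ones. The decay time constant had nearly the same mean in both groups (2.00 ± 0.178 and 1.97 ± 0.629 ms), but 3 small-group neurons lay above and 5 lay below the whole range of the large group. The rise time was measured on the same events as the amplitude and is not independent of the choice of the neurons.

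**Figure D1:**
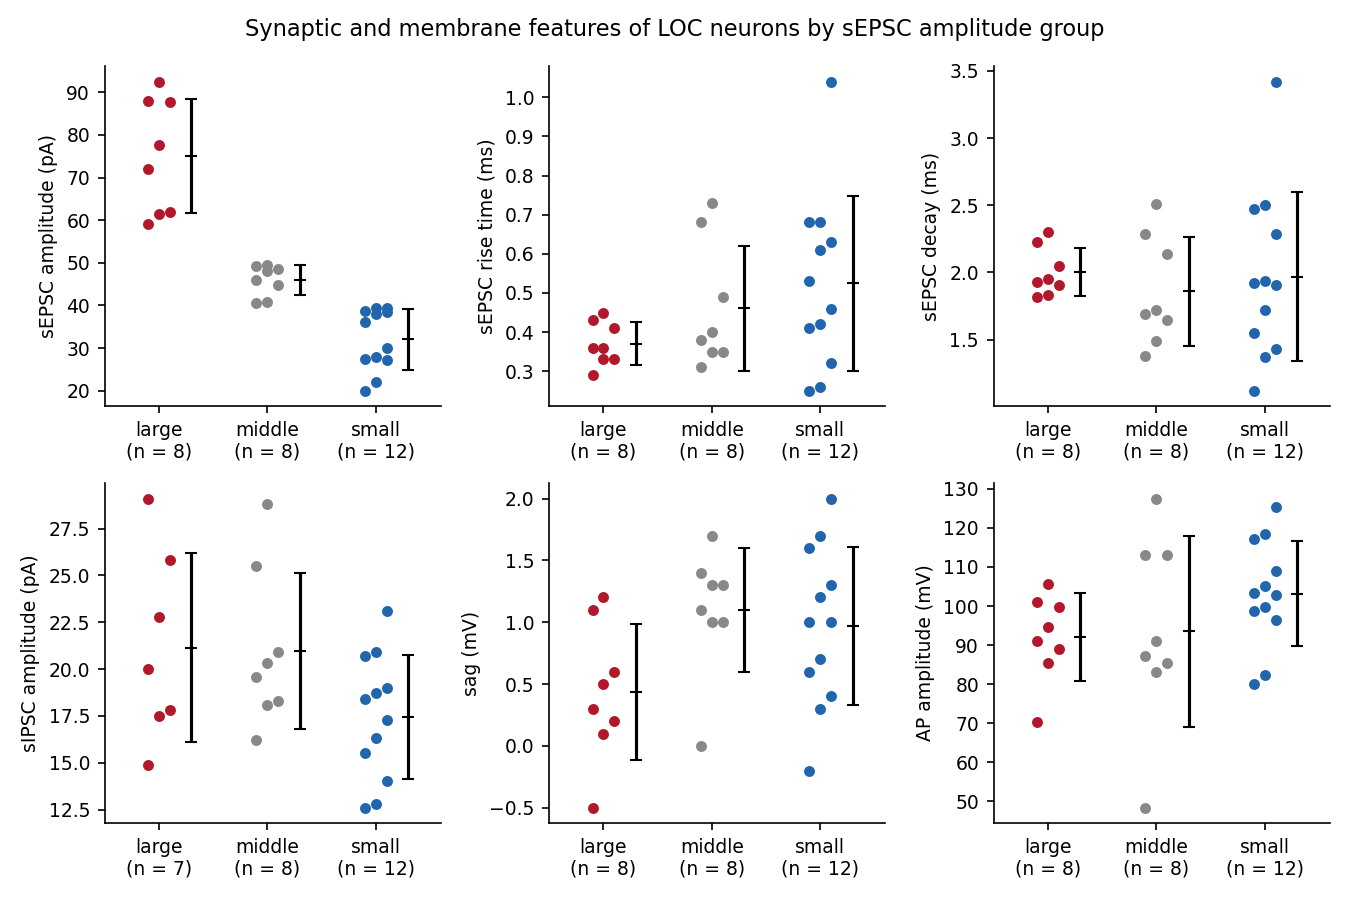
Electrophysiological features of the LOCs by amplitude group. Each point is a neuron, and the bar beside each group is the mean with SD over neurons. The sEPSC amplitude in pA (top left) chose the groups; rise times in ms (top middle) stay between 0.29 and 0.45 ms in the large group and reach 1.04 ms in the small group, and the other panels (decay in ms, sIPSC amplitude in pA, sag in mV, action potential amplitude in mV) overlap between the groups.

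Spontaneous inhibitory currents (sIPSCs) had amplitudes of 14.9 to 29.1 pA in the large group (median 20.0 pA, 21.1 ± 5.04 pA, n = 7) and of 12.6 to 23.1 pA in the small group (median 17.9 pA, 17.4 ± 3.32 pA, n = 12). The large-group neuron had the larger sIPSC in 70.2% of all pairs of a large-group and a small-group neuron, and 2 neurons of the large group lay above every small-group neuron. Across 27 LOCs both amplitudes had a Pearson correlation of 0.52 (Spearman 0.45); the 2 currents came from the same recording. The sag was smaller in the large group (-0.5 to 1.2 mV, median 0.40 mV) than in the small group (-0.2 to 2.0 mV, median 1.00 mV), and so was the action potential amplitude (92.1 ± 11.1 against 103 ± 13.5 mV). Ranges of both overlapped, and after a split of all 28 LOCs at the median amplitude the difference shrank from -0.53 to -0.09 mV for sag and from -11.1 to -1.46 mV for the action potential. Input resistance (485 ± 201 and 517 ± 256 MΩ) and membrane time constant (20.6 ± 7.96 and 20.5 ± 7.17 ms) had closely similar means. The mean rheobase of the small group (41.7 pA) rested on cell_57 with 300 pA, whereas no neuron of the large group exceeded 50 pA.

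Before the transcripts are compared, the libraries need a word. Values are TPM, listed as whole numbers, and a gene was counted as detected at 1 TPM or more. The large group had 1927 to 3530 detected genes per neuron (median 2694) and the small group 1175 to 3737 (median 2374). Markers of LOCs were checked with Calca (CGRP), Ucn (urocortin), Isl1, Nxph1, Anxa2 and Col4a3. In 18 of the 20 neurons at least 3 of these 6 genes were present, but cell_76 of the large group and cell_57 of the small group had Nxph1 alone, at 20 and 23 TPM, with Calca and Ucn at 0. Cell_76 also had 307 TPM of Slc17a6, the vesicular glutamate transporter typical of pLSOs. Where a 2-fold difference did not hold without these 2 neurons, the value without them is given beside it. Cell_78 and cell_85 were set aside because their libraries did not appear to be part of the mean of the LOC cluster in the study's supplementary table, unlike the 28 other LOCs. This membership was estimated by a least-squares fit of the cluster mean on the libraries. Their weights in the fit were at most 0.096, against at least 0.931 for the 28 others. The library of cell_85 was also nearly the same as that of cell_75 of the small group: over 9841 genes their log2 values had a Pearson correlation of 0.95, against 0.53 for the next of the 4560 pairs of libraries and a median of 0.29, and cell_75 contained 94.2% of the genes of cell_85. Both were labelled as separate neurons with different recordings (39.4 and 64.1 pA), and to which recording this RNA belongs cannot be told from the files, so cell_85 does not add an independent neuron. Without cell_75 the small group has 11 neurons, and 3 of the named genes were then no longer 2-fold apart (Grm5, Lrrtm3 and Ddc, given below). Of 42 columns of pLSOs given there, 5 equal a library of another name, and the label of 8 libraries of the series was in doubt. LOC columns were not among those compared, and the link between a LOC library and its recording rests on the name alone.

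A further property of the table matters for reading the values. The TPM that a low value is worth depended on the place of the gene in the table: among compared genes, the median of the lowest positive value was 13 TPM in the first 1500 rows and 1 TPM after row 5000. Levels of different genes were therefore not compared with each other. A gene near the top of the table also shows a large difference as soon as it is detected in a few more neurons: 36.8% of the compared genes in the first 1500 rows were higher in the large group by 2-fold or more, but 8.27% of those after row 15000.

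Across all genes, 4140 were detected in at least 5 of the 20 neurons and compared by the difference of mean log2(TPM + 1), large minus small. Of these, 925 (22.3%) were higher and 569 (13.7%) were lower in the large group by 1 or more on this scale, which is called 2-fold here, and the median difference of all compared genes was 0.13. With the number of detected genes as a covariate the counts were nearly even, with 775 higher and 735 lower and a median of -0.011, and after the split of all 28 LOCs at the median amplitude they were 584 and 511. No gene separated the groups completely. The area under the ROC curve (AUROC), which is the share of pairs in which the large-group neuron has the higher value with a tie counted as 0.5 of a pair, reached 0.93 at its highest and 0.17 at its lowest among the genes named here, with 0.5 for no difference. Of the 66 genes named by a rule, 56 differed by 2-fold or more, and 20 of these did so in all alternatives run. The other 36 fell short in at least 1 of them, and for these the weakest value stands beside each difference given below. The 56 include Gria3 and Grik5, which were detected in fewer than 5 of the 20 neurons and were not among the compared genes. Gria3 held in all alternatives, but it was detected in 3 small-group neurons alone.

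Too few of the glutamate receptor and auxiliary genes were compared to set them apart from this background. The list holds 41 genes, of which 10 were at 0 in all 28 LOCs and 11 were detected often enough to be compared. Among the 11, 3 were higher in the large group (Grm3, Grin2d and Grin1), which is 27.3% against 22.3% of all genes, and 3 were lower (Gria4, Gria2 and Grm5), which is 27.3% against 13.7%. Each of these 6 fell short of 2-fold when a certain neuron was left out: Grm3 (0.97) and Grin2d (0.76) without cell_72, Grin1 (0.55) without cell_61, Gria4 (-0.69) without cell_84, Gria2 (-0.56) without cell_80 and Grm5 (-0.69) without cell_57. Without cell_57 and cell_76 together, Grin1 was at 0.87, Gria4 at -0.83, Gria2 at -0.63 and Grm5 at -0.65. Leaving out cell_57 left 0 lower genes, and leaving out cell_67 gave 6 higher ones. The median difference of the 11 genes was 0.69, and that of the 31 list genes found in any of the 20 neurons was -0.19. The number of list genes detected per neuron was 3 to 8 in the large group (median 7) and 2 to 17 in the small group (median 6.5).

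Of the 4 AMPA receptor subunits, 3 were compared. In the large group 2 of the 3 were lower (66.7%, against 13.7% of all genes) and 0 were higher (against 22.3%). These counts are too small to set the subunits apart from all genes. Gria1 and Gria2 were the subunits most LOCs contained. Gria1 (GluA1; ENSMUSG00000020524, chromosome 11, 57011387 to 57330244, GRCm38) was found in 7 of 8 large-group neurons (87.5%, exact 95% interval 47.4 to 99.7%), with 0 to 1552 TPM and a median of 104.5 TPM. In the small group it was found in 10 of 12 (51.6 to 97.9%), with 0 to 755 TPM and a median of 128.0 TPM. The highest Gria1 value belonged to cell_68, which also had the largest sEPSC, but the next 2 neurons of the group in amplitude, cell_67 and cell_58, had 5 and 8 TPM. The groups overlapped throughout: the difference was 0.17, the AUROC 0.52, and across 28 LOCs the correlation of Gria1 with amplitude was 0.051 (Spearman -0.031). After the split at the median amplitude the difference was -0.97.

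Gria2 (GluA2, the subunit that makes AMPA receptors impermeable to calcium; ENSMUSG00000033981, chromosome 3, 80681450 to 80802835) was lower in the large group. It ranged from 0 to 107 TPM (median 36.5 TPM, 6 of 8 neurons) in the large group and from 0 to 175 TPM (median 76.5 TPM, 10 of 12 neurons) in the small group, a difference of -1.10 with an AUROC of 0.33. This difference did not reach 2-fold under several alternatives: it was -0.63 without cell_57 and cell_76, -0.57 with cell_78 (110 TPM) and cell_85 (65 TPM, a library close to that of cell_75) added to the large group, -0.76 with a pseudocount of 10 TPM, -0.86 after rescaling the libraries, -0.20 when all 28 LOCs were split at the median amplitude, and -0.56 without cell_80, which had none of the 4 subunits. Gria1 and Gria2 occurred together in 6 of 8 neurons of the large group, 9 of 12 of the small group and 2 of 8 of the middle group.

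Gria3 and Gria4 were rare in LOCs, and in the large group nearly absent. Gria4 (GluA4, the subunit of fast-gating receptors) had 2 TPM in cell_68 and 0 in the other 7 large-group neurons, but 1 to 157 TPM in 4 of 12 small-group neurons (difference -1.22) and 30 to 781 TPM in 3 of 8 middle-group neurons. With the split at the median amplitude its direction turned (0.43). Gria3 was at 0 in all 8 large-group and all 8 middle-group neurons and at 20, 173 and 2687 TPM in cell_62, cell_84 and cell_57 of the small group. For Gria3, 0 of 8 neurons allows a share of up to 37.5% when 3 counts are taken as the limit, and of up to 36.9% by the exact interval.

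**Figure D2:**
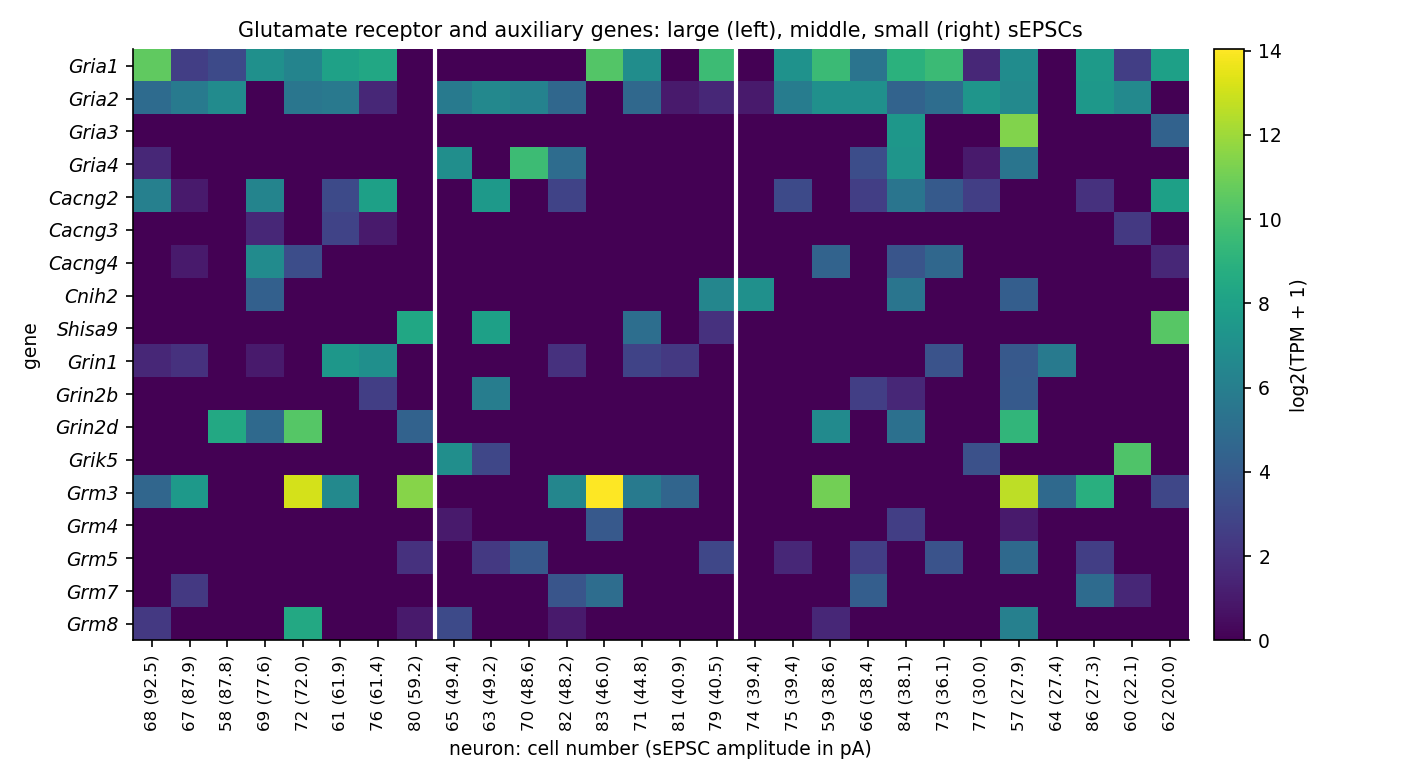
Values of 18 glutamate receptor and auxiliary genes detected in at least 3 of 28 LOCs. Each column is a neuron, ordered by sEPSC amplitude within the large (left), middle and small (right) groups, with the amplitude in pA in parentheses; the color is log2(TPM + 1). Gria1 and Gria2 are present in most neurons of the large and small groups, the other genes are scattered, and Grik5 is dark in all 8 large-group neurons. Colors are to be compared along a row.

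Auxiliary subunits were sparse in both groups. Cacng2 (stargazin, the prototypic TARP) was found in 5 of 8 large-group neurons, with 0 to 249 TPM and a median of 4.5 TPM, and in 7 of 12 small-group neurons, with 0 to 250 TPM and a median of 4.0 TPM. Its difference of 0.76 was -0.15 without cell_57 and cell_76, since cell_76 had the highest value of the large group. Cacng4, another TARP, was present in 3 of 8 and 4 of 12 neurons (difference 0.18), and Cacng3 in 3 of 8 and 1 of 12. At least 1 TARP was detected in 6 of 8 large-group and 10 of 12 small-group neurons. Cnih2 (a cornichon) was found in 1 of 8 and 3 of 12, and Shisa9 in 1 of 8 and 1 of 12. Cacng8, Cnih3, Shisa6, Shisa8 and Gsg1l were at 0 in all 20 neurons. Of the 10 genes listed for AMPA receptor assembly and clustering, 6 were compared; the AMPA receptor-binding proteins Porcn (4 of 8 against 1 of 12, difference 1.45) and Cpt1c (3 of 8 against 2 of 12, 1.25) were higher and the RNA-editing enzyme Adar was lower (2 of 8 against 7 of 12, -1.46) in the large group; Against 22.3% and 13.7% of all genes, these are 33.3% and 16.7% of the 6. None of the 3 held in all alternatives: Porcn was at 0.72 without cell_80 and 0.33 after the split at the median amplitude, Cpt1c at 0.35 without cell_69 and 0.48 without cell_57 and cell_76, and Adar at -0.64 with a pseudocount of 10 TPM and -0.96 without cell_57 and cell_76. Adarb1, the other RNA-editing enzyme of the list, was compared too and lay in the opposite direction, short of 2-fold (3 of 8 against 3 of 12, 0.92).

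Of the 7 NMDA receptor genes, 2 were compared, and both were higher in the large group, where 22.3% of all genes were. Grin1, the obligatory subunit, was detected in 5 of 8 large-group neurons, with 0 to 172 TPM and a median of 1.5 TPM, and in 3 of 12 small-group neurons, with 0 to 54 TPM and a median of 0 TPM (difference 1.27, AUROC 0.67). Of the 5 positive large-group values, 3 were 1, 2 and 3 TPM. Grin2d was detected at 20, 27, 355 and 1304 TPM in 4 of 8 large-group neurons and at 35, 104 and 612 TPM in 3 of 12 small-group neurons (difference 1.74, AUROC 0.61, 0.49 after the split at the median amplitude), and in none of the 8 middle-group neurons. Grin2b went the other way, with 1 of 8 and 3 of 12 neurons (-0.36), and Grin3a was found in 0 of 8 and 1 of 12, Grin2a in 1 of 8 and 0 of 12. At least 1 of the 7 NMDA receptor genes was present in all 8 large-group neurons (63.1 to 100%), in 6 of 12 small-group neurons (21.1 to 78.9%) and in 4 of 8 middle-group neurons, a count made after the values had been seen. Neither library set aside had any of them, nor had cell_75, which is close to cell_85. Grin1 together with a Grin2 gene was found in 2 of 8 and 1 of 12 neurons.

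Kainate and delta receptor genes were too rare for a comparison. None of the 9 genes, among them Grik1 to Grik5 and the auxiliary genes Neto1 and Neto2, was detected in any large-group neuron, whereas 8 were detected in the small group, each in 1 or 2 neurons. Of these 8 genes 6 were in a single neuron, and of all 3093 genes found in a single one of the 20 neurons 59.9% were in the small group, which has more neurons. For genes in 2 of the 20 neurons, as the other 2 were, 33.1% of 1697 were in the small group alone. At least 1 of them was present in 6 of 12 small-group neurons, in 3 of 8 middle-group neurons and in both libraries set aside. Cell_57 alone accounted for 3 of the 8 genes, and 5 were found in the other small-group neurons. None was detected in 5 of the 20 neurons, so no difference is given.

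The metabotropic receptors were mixed. Grm3 was found in 5 of 8 large-group neurons (0 to 8820 TPM, median 60.5 TPM) and in 5 of 12 small-group neurons (0 to 6235 TPM, median 0 TPM), a difference of 2.06 that lay between 0.97, without cell_72, and 3.68, without cell_57 and cell_76. Grm3 and Grin2d are among the first 1500 rows of the table. Grm5, which couples to calcium release, was found in 1 of 8 and 5 of 12 neurons (difference -1.01; -0.98 without cell_75 and -0.32 with a pseudocount of 10 TPM). Grm8 was found in 3 of 8 and 2 of 12 neurons (0.83) and Grm7 in 1 of 8 and 3 of 12 (-0.60). No member of the glutamate list reached an AUROC of 0.70 or fell below 0.30 among the 11 genes compared.

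**Figure D3:**
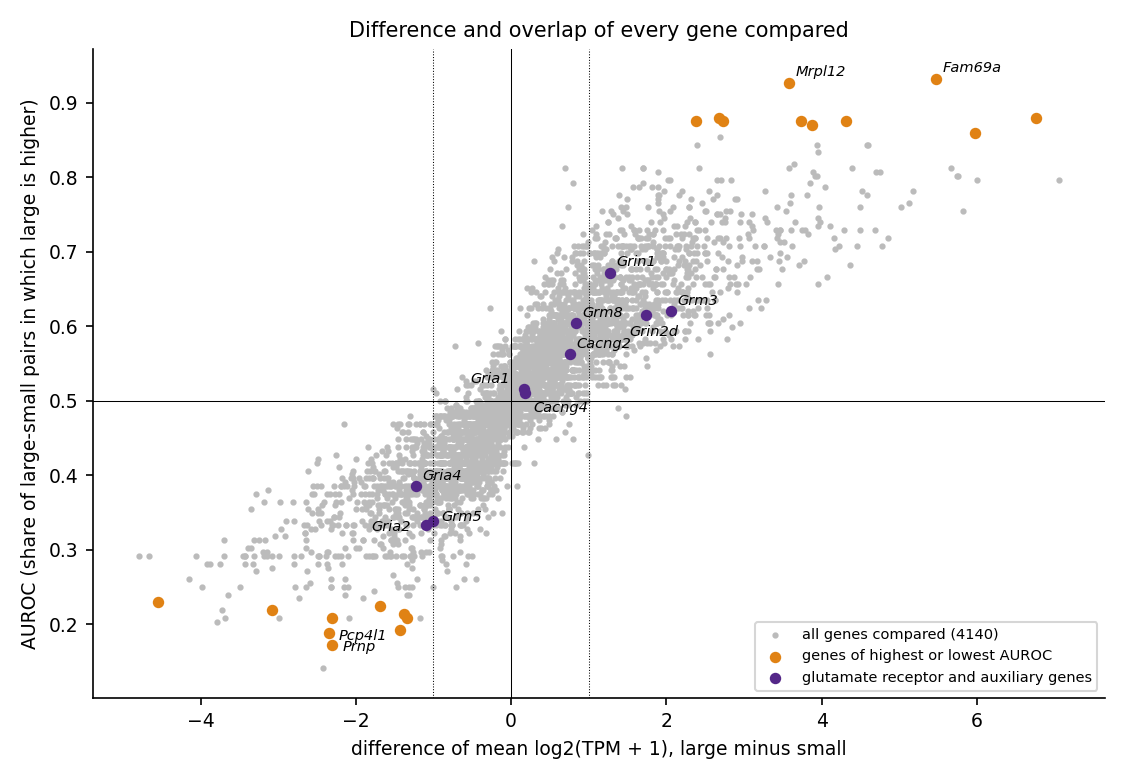
Difference of mean log2(TPM + 1), large minus small (horizontal axis), and AUROC (vertical axis) of the 4140 genes compared. Glutamate receptor and auxiliary genes (purple, 10 marked) lie inside the cloud of all genes (gray), between -1.22 and 2.06; leading genes in each direction (orange) lie at its ends, up to an AUROC of 0.93 for Fam69a and down to 0.17 for Prnp. Dotted lines mark a difference of 1 in either direction.

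The genes that came closest to separating the groups belonged to other functions. Among genes higher by 2-fold or more and detected in 75% or more of the large group (315 genes), the 10 with the highest AUROC were Fam69a, Mrpl12, Fam162a, Qk, Meis1, Gabarap, Map1lc3b, Fnip1, Idh3b and Slbp. Since these were ranked by the difference itself, their values are a description. Fam69a (ENSMUSG00000029270, chromosome 5, 107908053 to 107987085) was present in 7 of 8 large-group neurons, with 0 to 195 TPM and a median of 86.0 TPM. It was at 4 TPM in cell_73 and at 0 in the other 11 small-group neurons, and at 125 TPM in cell_81 alone among the middle group. The difference was 5.47, and it was at least 2.57 in all alternatives. None of the 19 leading genes reported here fell short of 2-fold when any of the neurons was left out, but 8 did so in another alternative. With a pseudocount of 10 TPM these were Fnip1 (0.71) and, among the lower genes, Prnp (-0.99), Pcp4l1 (-0.86), Fam168a (-0.71), Cops9 (-0.48), Gm12481 (-0.48) and Ssb (-0.39), and after the split at the median amplitude Sdhaf4 (-0.53) as well as Cops9, Gm12481 and Ssb.

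Meis1, a homeobox transcription factor (ENSMUSG00000020160, chromosome 11, 18879817 to 19018985), was detected in 6 of 8 large-group neurons at 1073, 307, 286, 21, 3 and 2 TPM and in none of the 12 small-group neurons. For Meis1, 0 of 12 neurons allows a share of up to 25% when 3 counts are taken as the limit, and of up to 26.5% by the exact interval. In the middle group it had 17 TPM in cell_65 and 5 TPM in cell_79. Fnip1, a binding partner of folliculin, was the other gene with this pattern, with 1 to 22 TPM in 6 of 8 large-group neurons and 0 in all 12 small-group neurons, but also 3 to 79 TPM in 4 of 8 middle-group neurons. Across all genes, 67 (1.62%) had a share of neurons higher by 50 percentage points or more in the large group, and 26 (0.628%) a share lower by as much. Every large-group neuron contained Meis1 or Fam69a, against 3 of 8 middle-group neurons, 1 of 12 small-group neurons and 19 of 52 pLSOs. The pair was formed from genes picked on the large and small groups, so the contrast between these groups follows from the choice.

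Mitochondrial and autophagy genes were among the rest. Mrpl12, a protein of the mitochondrial ribosome, was found in 7 of 8 large-group neurons (0 to 48 TPM) and in 1 of 12 small-group neurons (difference 3.58). Fam162a, a mitochondrial protein, was found in 7 of 8 (median 1918 TPM) and 3 of 12 (6.76), and Idh3b, a subunit of the citric acid cycle enzyme isocitrate dehydrogenase, in 7 of 8 (median 153.5 TPM) and 7 of 12 (median 2.5 TPM; 3.88). Gabarap and Map1lc3b, ubiquitin-like proteins of the autophagosome membrane, were detected in all 8 large-group neurons within narrow ranges of 561 to 1507 and 44 to 178 TPM. In the small group both were at 0 in some neurons, 3 of 12 for Gabarap and 4 of 12 for Map1lc3b, but their highest values there, 1902 and 157 TPM, were about as high. Slbp, the histone stem-loop binding protein, was found in 7 of 8 and 4 of 12 neurons (5.98), and Qk, an RNA-binding protein also abundant in glia, in 7 of 8 and 7 of 12 (2.68).

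The middle group lay between both groups or close to the small group. Its mean log2(TPM + 1) fell between those of the other groups for 8 of the 10 genes. Counted over the 10 genes, large-group neurons contained 7 to 10 of them, middle-group neurons 2 to 7 and small-group neurons 1 to 7, so that the 2 latter overlapped. The 10 genes were picked on the large and small groups, so the distance between these groups follows from the choice. Middle-group neurons had no part in the choice. Genes picked as extremes of 2 groups tend to place any further group between them, so this position is no measure of a graded relation to amplitude. At least 8 of the 10 were present in 7 of 8 large-group neurons, in no other LOC and in 1 of 52 pLSOs. With a limit of 5 of the 10, the counts were 8 of 8 large-group, 3 of 8 middle-group and 2 of 12 small-group neurons. This lower limit was also met by 29 of 52 pLSOs, so the genes were not particular to LOCs with large sEPSCs. Of the libraries set aside, cell_78 (92.1 pA) contained 2 of the 10 genes. Cell_85 (64.1 pA) contained 4, as did cell_75, whose library is nearly the same and was among those on which the genes were picked, so its count is not that of a further neuron with large sEPSCs. Meis1, Mrpl12, Qk and Slbp were at 0 in cell_78 and cell_85.

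**Figure D4:**
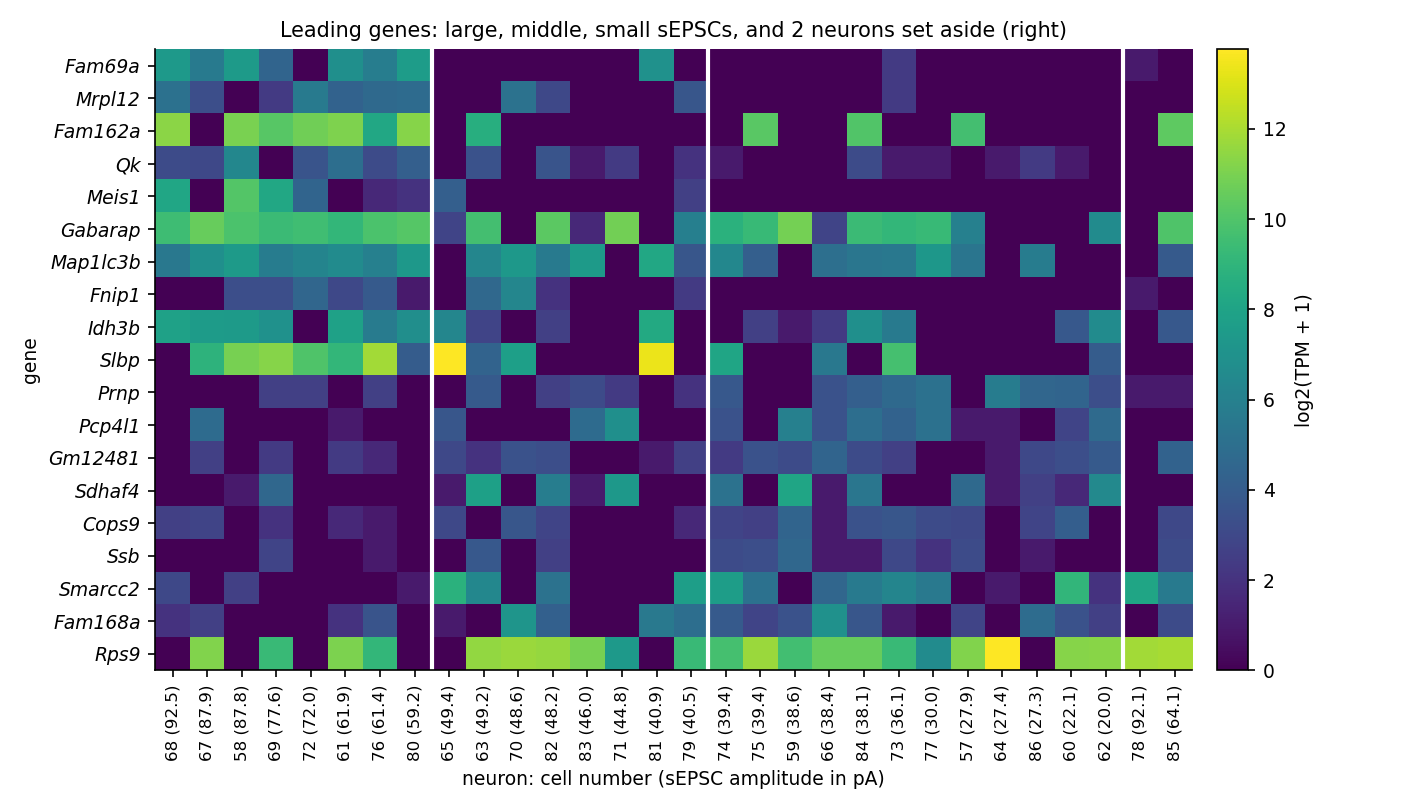
Values of 19 leading genes (rows; the upper 10 higher and the lower 9 lower in the large group) in 30 LOCs (columns, ordered by sEPSC amplitude in pA within the large, middle and small groups, then cell_78 and cell_85). The color is log2(TPM + 1). Large-group neurons contain 7 to 10 of the upper genes, small-group neurons 1 to 7, and the neurons on the far right 2 and 4. The genes were picked on the large and small groups, so the contrast between these groups follows from the choice.

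Other genes were lower in the large group. Prnp, the prion protein, had 0 to 5 TPM in the large group (3 of 8 neurons) and 0 to 53 TPM in the small group (9 of 12; difference -2.31, AUROC 0.17), and it was in 1 of 8 negative controls. Pcp4l1 was found in 2 of 8 and 10 of 12 neurons (-2.35), Sdhaf4, an assembly factor of succinate dehydrogenase, in 2 of 8 and 9 of 12 (-2.30), and Smarcc2, a subunit of chromatin-remodeling complexes, in 3 of 8 and 9 of 12 (-3.08). Ssb, Cops9, Fam168a, Gm12481 and the ribosomal protein gene Rps9 were lower as well. Negative controls had higher mean TPM than the large and small groups for Cops9 (68.1), Fam168a (40.6), Gm12481 (10.1) and Rps9 (3407). Each of these was found in 2 or 3 of 8 controls. For Prnp, Pcp4l1, Sdhaf4, Smarcc2 and Ssb the mean of the controls was below that of the small group. Rps9 has near-identical copies in the genome, and its values are uncertain for that reason.

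Of the postsynaptic scaffold list, 13 of 35 genes were compared, 3 were higher (23.1%) and 2 were lower (15.4%) in the large group, close to the shares of all genes. Camk2a, the alpha subunit of calcium/calmodulin-dependent kinase II, was detected in 4 of 8 large-group neurons at 36, 105, 208 and 430 TPM and in 1 of 12 small-group neurons at 2 TPM (3.42). Camk2d was lower (3 of 8 against 6 of 12, -1.34; -0.63 with a pseudocount of 10 TPM). The scaffold protein Dlgap1 was found in 6 of 8 and 5 of 12 neurons (2.22), Lrrtm3 in 4 of 8 and 5 of 12 (1.05; 0.53 with a pseudocount of 10 TPM, 0.58 without cell_68 and 0.94 without cell_75), and Homer1 in 2 of 8 and 4 of 12 (-1.16; -0.33 without cell_62 or without cell_57 and cell_76).

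Of the inhibitory receptor genes, 3 of 8 compared were higher (37.5%, against 22.3% of all genes) and none was lower (against 13.7%), counts too small to set them apart from all genes. The glycine receptor beta subunit Glrb was found in 7 of 8 and 8 of 12 neurons (1.32, but 0.80 without cell_72 and 0.043 after the split at the median amplitude), and Glra2 in 3 of 8 and 3 of 12 (1.14, but 0.26 without cell_80 and -0.17 after the split at the median amplitude). All 3 leak channel genes compared, Nalcn, Unc79 and Unc80, which encode a sodium leak channel and its partners, were higher by 1.49 to 2.24, each in 4 or 5 of 8 large-group and 3 or 4 of 12 small-group neurons. Of all genes 22.3% were higher, and of those in the first 1500 rows, where Nalcn lies, 36.8%. Nalcn kept 2-fold in all alternatives, but its AUROC was 0.58 and its mean TPM was lower in the large group (3422 against 4019 TPM). The highest Nalcn value, 38941 TPM, was in cell_60 of the small group. Unc79 was at 0.40 and Unc80 at 0.92 without cell_58, and Unc80 at 0.55 with a pseudocount of 10 TPM. None of the HCN channel genes was detected often enough to be compared.

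LOC transmitter genes differed in part. Of 8 compared genes of this list, 4 were higher in the large group (Ache, Calcb, Th and Ddc), which is 50% against 22.3% of all genes. Gad2 alone was lower (12.5%, against 13.7%). These counts are too small to set the list apart from all genes. Calca (median 1580 and 971 TPM, difference -0.14) and Ucn (median 26.5 and 29.5 TPM, -0.33) differed little. Gad2, a GABA-synthesizing enzyme, was found in 3 of 8 large-group neurons and in 10 of 12 small-group neurons (-1.51; -0.60 with a pseudocount of 10 TPM), with 7 of 8 in the middle group. Ache, which degrades acetylcholine, was found in 7 of 8 and 6 of 12 (2.80), Calcb in 5 of 8 and 5 of 12 (2.09), the dopamine-synthesizing enzymes Th in 4 of 8 and 3 of 12 (1.95; 0.48 without cell_61 and 0.23 after the split at the median amplitude) and Ddc in 3 of 8 and 4 of 12 (1.22; 0.26 without cell_80, 0.9985 without cell_75). Slc17a6 passed 2-fold (1.12) through cell_76 alone; without it the mean of the large group was 0.286 TPM and the difference 0.12, or 0.10 without cell_57 as well. Among activity-regulated genes, 1 of 7 was higher (Dusp1, 7 of 8 against 4 of 12, 3.49) and 1 was lower (Fos, 5 of 8 against 10 of 12, -1.36, or -0.56 without cell_80). Each is 14.3% of the list, against 22.3% higher and 13.7% lower of all genes. Of 6 stress genes, Hsph1 was higher (1.36, or 0.66 without cell_72 and 0.76 without cell_57 and cell_76), and Hspa5 (-1.96) and Gadd45b (-1.43, or -0.75 without cell_84) were lower. These are 16.7% and 33.3% of the 6, counts too small to set them apart from all genes.

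Some markers listed for other cell types also differed. Of 5 compared astrocyte markers, 3 were lower in the large group (60%, against 13.7% of all genes), namely Slc1a2 (1 of 8 against 6 of 12, -3.25; -0.64 after the split at the median amplitude), Slc1a3 (1 of 8 against 6 of 12, -2.03; -0.92 with a pseudocount of 10 TPM) and Aldoc (5 of 8 against 10 of 12, -2.80). The other compared markers, Aqp4 (-0.012) and S100b (-0.35), differed little. The summed astrocyte markers ranged from 0 to 6711 TPM in the large group (median 201.5 TPM) and from 11 to 23902 TPM in the small group (median 1958 TPM), with Gfap present in 1 of 8 and 2 of 12. All marker sums add genes of unlike TPM scale and do not measure glial material. The highest astrocyte sums rested on Aldoc (6588 TPM in cell_76) and on Slc1a2 and Aldoc (13459 and 10407 TPM in cell_64). Aldoc was also found in 39 of 52 pLSOs. Of 6 compared oligodendrocyte markers, 1 was higher (Mobp, 1.05, or 0.41 without cell_80 and 0.77 without cell_57 and cell_76) and 1 was lower, each 16.7% against 22.3% and 13.7% of all genes. The sum of the list was 35 to 8457 TPM (median 957.5 TPM) in the large group and 54 to 4383 TPM (median 1119 TPM) in the small group. Of 4 compared microglia markers, 2 were higher (50%, against 22.3% of all genes) and 0 were lower, counts too small to set them apart from all genes. Among the higher was C1qb (1.28, or 0.33 after the split at the median amplitude, 0.93 without cell_76 and 0.82 without cell_57 as well). The sums of the microglia list were 0 to 698 TPM in the large group and 0 to 2007 TPM in the small group. None of the 6 endothelial markers was compared; their sum was at most 1 TPM in the large group and at most 533 TPM in the small group. The part of this material in the differences above was not tested.

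**Figure D5:**
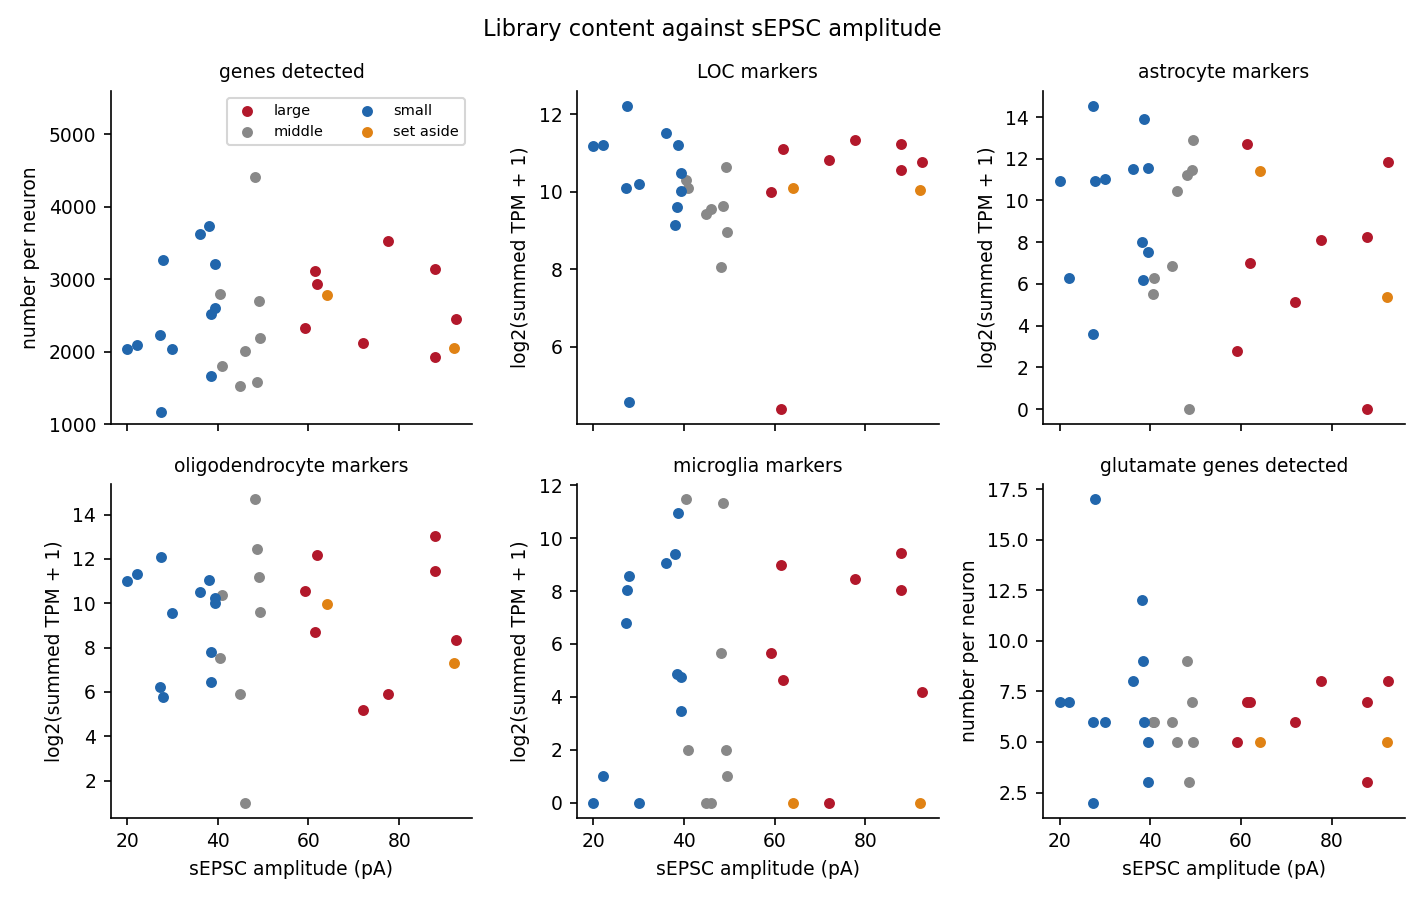
Content of each library against the sEPSC amplitude in pA (horizontal axes). Points are neurons of the large, middle and small groups and the neurons set aside. The panels show the number of genes detected, the summed LOC, astrocyte, oligodendrocyte and microglia markers as log2(summed TPM + 1), and the number of the 41 glutamate genes detected. The sums add genes of unlike TPM scale. Cell_57 and cell_76 lie far below the others in LOC markers, and cell_57 has the highest number of glutamate genes, 17.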

How the data were processed

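The authors aspirated the cytoplasm of recorded neurons, made libraries after a modified Smart-seq2 protocol, trimmed reads (Trim Galore 0.4.2), aligned them to mm10 with STAR, handled duplicates with Picard 1.115 and counted reads per gene with featureCounts. The deposited values are TPM rounded to whole numbers by the authors and were treated as a score; library totals lay at 999773 to 1000026 TPM for 38887 genes. No read counts were used here, and the sequencing depth of a library is unknown. Gene names and positions came from Gencode vM21 (GRCm38), in which 37570 genes had a name. Electrophysiological values are the labels' own, each an average over events of a neuron.

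Groups were formed by the sEPSC amplitude label. The members, lists and limits were chosen with earlier results of these data known. Values are mean TPM, shares of neurons with 1 TPM or more with exact Clopper-Pearson 95% intervals (counting error only), differences of mean log2(TPM + 1), which understate changes of low genes, and AUROC. Genes detected in fewer than 5 of 20 neurons were not compared. No test was made, because each group counts as 1 sample. Named genes are those of the glutamate list found in 3 or more LOCs, the 10 of highest AUROC in each direction among genes past 2-fold and present in 75% of the higher group, and genes of other lists past 2-fold; others were named after their values were seen. A few of the genes so chosen are not reported here. pLSO and negative control values rest on 52 and 8 libraries without a doubtful label, a choice that depends on the cluster means of the study. The alternatives were a pseudocount of 10 TPM, median-ratio scaling over the 62 genes found in all 20 neurons, other filters, other groupings, the number of detected genes as covariate, and leaving out each neuron; the exclusion of cell_57 and cell_76, that of cell_75, the restriction to rows after row 5000 and the comparison of shares were chosen after seeing the data. The calculation of differences and AUROC was tested on simulated data. Calculations used Python 3.11.15, pandas 2.3.3, NumPy 2.4.6 and SciPy 1.17.1, and figures matplotlib 3.10.9.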

Additional observations from a re-analysis of the deposited data

Results flagged for a closer look

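Within groups of 5 to 8 neurons, 50 checks of a neuron far from the rest (Dixon's rule) marked 8 values. The rule marks about 1 in 20 by chance only for independent, normally distributed values. TPM with zeros and several values of the same neuron are not of this kind, so the 8 cannot be set against that rate. In the large group cell_76 had 0 TPM of Calca, against 676 to 2155 TPM in the other 7 neurons, 0 TPM of Ucn, against 12 to 59 TPM, and 0 TPM of Anxa2, against 88 to 301 TPM. Cell_80 of the large group had a resting potential of -73.3 mV, against -55.1 to -51.5 mV in the 4 other neurons with a value. In the middle group, cell_79 had a sag of 0 mV, against 1.00 to 1.70 mV, and an action potential halfwidth of 3.37 ms, against 0.83 to 1.74 ms. Cell_82 had 4408 detected genes, against 1532 to 2792 in the others, and cell_81 had 0 TPM of Col4a3, against 22 to 158 TPM. The cause of these values was not tested.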

How the results depend on the processing

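The 925 genes higher and 569 genes lower in the large group became 402 and 236 with a pseudocount of 10 TPM, 382 and 222 with the filter at 10 of 20 neurons (1491 genes compared), 399 and 230 in rows after row 5000, and 67 and 26 by shares 50 points apart; the split at the median amplitude gave 584 and 511, and the number of detected genes as covariate 775 and 735. Leaving out each neuron gave 829 to 1002 higher and 506 to 652 lower.

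The 3 higher and 3 lower glutamate genes became 1 and 0 with a pseudocount of 10 TPM or the split at the median amplitude, and 1 and 1 with cell_78 and cell_85 or the filter at 10 of 20 neurons. Lower genes numbered 1 after median-ratio scaling or with detection at 10 TPM or more, 5 without a filter, and 0 without cell_57 and cell_76. Leaving out each neuron gave 3 to 6 higher (6 without cell_67) and 0 to 3 lower ones (0 without cell_57). The median difference of the list stayed between 0.14 and 1.01, except at -0.19 without a filter.

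Of 56 named genes with a difference of 2-fold or more, 2 changed direction, both with the split at the median amplitude: Gria4 (0.43) and Glra2 (-0.17). Of the 10 named genes with smaller differences, 8 changed sign in at least 1 alternative (Gria1, Cacng2, Cacng4, Shisa9, Grin2b, Grm4, Grm7 and Grm8). With a pseudocount of 10 TPM 32 named genes no longer passed 2-fold. After the split at the median amplitude 23 did not, besides the 2 that changed direction. With cell_78 and cell_85 11 did not, without cell_57 and cell_76 11 did not, and without cell_75 3 did not. The exclusion of cell_75 gave 993 higher and 535 lower genes in all. The differences of the electrophysiological features and of the detected genes moved by less than 1 SD in the other groupings run; that of rheobase went from -29.2 to -3.90 pA without cell_57 and cell_76. No paired analysis was possible because the groups share no replicate numbers or animals in the labels. Depth per library is unknown, and 8 and 12 neurons leave wide intervals: 5 of 8 allows 24.5 to 91.5%.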
